A study of Mus musculus with 6 samples.

Results

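MiR-132 and miR-212 are microRNAs, short RNAs that lower the output of messenger RNAs whose sequence pairs with theirs. The 4 mature strands of this pair, listed as mmu-miR-132-3p, mmu-miR-132-5p, mmu-miR-212-3p and mmu-miR-212-5p (the prefix stands for mouse and is left out below), were taken by name from a table of 1390 mature miRNAs, and all 4 were present. They were measured by small-RNA sequencing of whole thymus from wild-type C57BL mice aged 5 weeks. The irradiated group (n = 3 mice) received a single dose of 6 Gy of X-rays, delivered at 800 cGy/min from 40 cm, and its thymus was taken 24 h later. The control group (n = 3 mice) was of the same strain and age and was not irradiated. Whole tissue was used, so fewer cells of a type and less RNA per cell cannot be told apart in any value below.

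The pair is made from one short stretch of the genome. Its transcription is driven in neurons by CREB, a transcription factor switched on by cyclic AMP and calcium signals, through CREB-binding elements near the hairpins. The 3p strands are the ones whose targets are best known, among them Rasa1, a brake on Ras signalling in endothelial cells. In mouse blood formation the locus is known for its control of Foxo3 in haematopoietic stem cells. CREB itself was not measured in these libraries, so the word CREB-responsive rests on this background alone.

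The mature sequences are shown because the shared and unshared seeds decide which strands can be read together. Capitals mark the seed, bases 2 to 8, which is the part that chooses targets.
miR-132-3p: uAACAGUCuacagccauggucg
miR-212-3p: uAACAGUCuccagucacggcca
miR-132-5p: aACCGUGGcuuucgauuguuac
miR-212-5p: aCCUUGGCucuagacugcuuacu
Both 3p strands carry the seed AACAGUC, and no other miRNA in the table carries it. The 5p strands have the seeds ACCGUGG and CCUUGGC, each found in 1 miRNA of the table. Counted from the 5′ end, miR-132-3p and miR-212-3p match at 17 of 22 bases. They differ at A10C, C14U, U17C, U20C and G22A (the base of miR-132-3p first, that of miR-212-3p last), so a full-length read tells them apart although their first bases are the same.

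The hairpins show where the strands come from. Capitals mark the mature strands, with the 5p strand first.
Mir212: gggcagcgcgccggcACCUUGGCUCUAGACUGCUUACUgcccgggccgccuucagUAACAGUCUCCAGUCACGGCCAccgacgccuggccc
Mir132: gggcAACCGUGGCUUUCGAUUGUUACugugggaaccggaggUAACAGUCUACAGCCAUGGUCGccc
In the RefSeq annotation of GRCm38.p6, Mir212 lies on the plus strand of chromosome 11 at 75173388 to 75173478. Mir132 lies at 75173682 to 75173747 on the same strand, 203 bases further on. GENCODE M21 places both hairpins in intron 1 of the non-coding gene 1700016P03Rik (75172560 to 75177633). The sequences of all 4 strands and both hairpins in the authors' table were the same as those in RefSeq. Each mature sequence occurs once in its hairpin.

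All 4 strands had lower mean levels in irradiated than in control thymus, and only miR-132-5p passed the test. MiR-132-5p had a fold of 0.51, irradiated over control (95% interval 0.34 to 0.763). The other 3 strands had folds of 0.53 to 0.781 and did not pass. In this tissue most of the miRNAs that passed the low-count filter changed. Of 519 miRNAs tested with edgeR's quasi-likelihood test, 61.3% passed an adjusted p of 0.05, against 1 of the 4 strands. Of the tested miRNAs, 33.5% were called lower and 27.7% higher. The strands passed the low-count filter in full, 4 of 4, with at least 31 reads in each library.

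Levels are given as CPM, counts scaled to a library total that was adjusted by trimmed-mean (TMM) factors. CPM is a relative level, so a strand can also read lower where other miRNAs rose, and this was not tested. TMM factors assume that most miRNAs do not change, whereas 61.3% of the tested miRNAs passed the threshold here. MiR-132-3p was the most abundant strand, ranked 180 of the 519 by mean level, followed by miR-132-5p at 216. MiR-212-5p and miR-212-3p ranked 328 and 332. Together the 4 strands held 0.0111%, 0.00656% and 0.00985% of all counts in irradiated replicates 1, 2 and 3, and 0.0102%, 0.0223% and 0.0147% in control replicates 1, 2 and 3. The mature strands are 22 or 23 bases long, so no length correction was made. Comparisons between strands are of reads, since how well each sequence is captured in a library was not measured.

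MiR-132-3p, the strand with most of the known targets, was at 89.0, 37.9 and 56.1 CPM in irradiated replicates 1, 2 and 3. It was at 67.0, 82.5 and 84.5 CPM in control replicates 1, 2 and 3. The groups overlapped, since irradiated replicate 1 was the highest of all 6 libraries and irradiated replicate 2 the lowest. The mean was 61.0 ± 25.9 CPM in irradiated and 78.0 ± 9.57 CPM in control thymus (SD, n = 3 each). The log2 fold change was −0.36 ± 0.33 (SE), with a 95% interval of −1.10 to 0.39 and an edgeR adjusted p of 0.368. The exact Poisson 95% intervals, which cover counting error only, were 82.4 to 95.9 CPM in irradiated replicate 1 and 33.8 to 42.2 CPM in irradiated replicate 2. Without irradiated replicate 1 the change was −0.73 and passed (edgeR adjusted p of 0.0433, in a range of 0.0433 to 0.785 across 17 alternatives). Without irradiated replicate 2 it was 0.10 (edgeR adjusted p of 0.785), so its direction rested on that library.

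MiR-132-5p, the other strand of the same hairpin, was at 23.6, 21.5 and 25.0 CPM in irradiated replicates 1, 2 and 3. In control replicates 1, 2 and 3 it was at 40.4, 53.6 and 43.4 CPM. The groups did not overlap, and the 3 irradiated values lay close together, with a coefficient of variation of 7.48% against 15.2% in control. The mean was 23.4 ± 1.75 CPM in irradiated and 45.8 ± 6.95 CPM in control thymus (SD, n = 3 each). The log2 fold change was −0.97 ± 0.26 (SE), with an edgeR adjusted p of 0.00928. The call was lost without irradiated replicate 2 (−0.71, edgeR adjusted p of 0.0581) or control replicate 3 (−0.90, 0.0614), and with upper-quartile scaling (−0.53, 0.104), in a range of 0.00227 to 0.104 across 17 alternatives. It passed in 14 of the 17 and was negative in all of them. The 17 are not independent checks, as they share libraries, and the stricter threshold of 0.01 used the reported fit itself. Without control replicate 2 the pass was narrow (−0.85, edgeR adjusted p of 0.0494).

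MiR-212-3p shares its seed with miR-132-3p. It was at 6.26, 3.82 and 8.28 CPM in irradiated replicates 1, 2 and 3, against 7.99, 9.19 and 11.2 CPM in control replicates 1, 2 and 3. The groups overlapped, because irradiated replicate 3 was above control replicate 1. The mean was 6.12 ± 2.23 CPM in irradiated and 9.45 ± 1.604 CPM in control thymus (SD, n = 3 each). The log2 fold change was −0.62 ± 0.37 (SE), with a 95% interval of −1.44 to 0.19 and an edgeR adjusted p of 0.156.

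MiR-212-5p was at 6.13, 3.70 and 7.86 CPM in irradiated replicates 1, 2 and 3. Its control replicates 1, 2 and 3 were at 8.84, 14.6 and 9.94 CPM. The groups did not overlap. Of all tested miRNAs 36.6% had every irradiated value below every control value, as miR-132-5p and miR-212-5p did, and 68.6% had groups apart in either direction. For miR-212-5p this held with TMM scaling and not in the authors' TPM, scaled by library totals. There irradiated replicate 3 was at 7.97 and control replicate 1 at 7.27, so the groups overlapped. Overlap was looked at on these scales alone. MiR-132-5p stayed apart on both scales. The mean was 5.90 ± 2.09 CPM in irradiated and 11.1 ± 3.04 CPM in control thymus (SD, n = 3 each). The log2 fold change was −0.92 ± 0.38 (SE), with a 95% interval of −1.76 to −0.07 and an edgeR adjusted p of 0.0568. With limma-voom it passed (−0.95, adjusted p of 0.0489, in a range of 0.0489 to 0.306 across 16 alternatives). The miR-212 strands rest on few reads: miR-212-5p had 31 counts in irradiated replicate 2, for which the exact Poisson 95% interval was 21.1 to 44.0 counts, and 157 in control replicate 2.

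**Figure D1:**
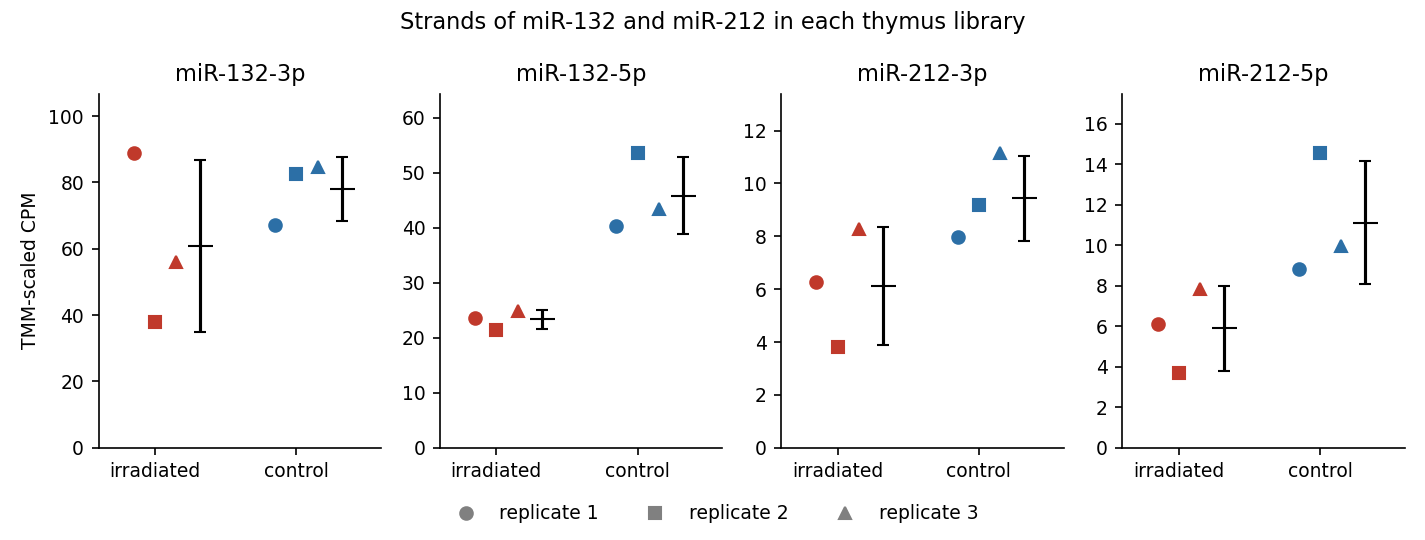
Level of each strand in TMM-scaled CPM (vertical axes, each from 0) in irradiated and control thymus, with 1 point per mouse shaped by replicate number and the mean ± SD beside it. MiR-132-5p sits between 21.5 and 25.0 CPM in irradiated mice, below every control mouse, whereas miR-132-3p spreads from 37.9 to 89.0 CPM in irradiated mice.

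**Figure D2:**
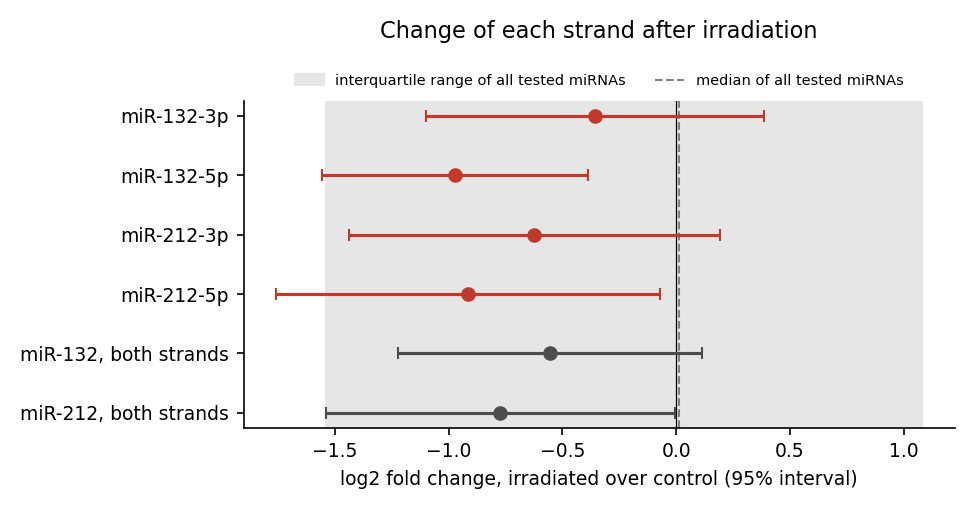
Log2 fold change of irradiated over control for each strand and for both strands of each hairpin summed, with 95% intervals from edgeR. The grey band is the interquartile range of the 519 tested miRNAs, from −1.54 to 1.08, and all 6 estimates lie inside it.

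These differences were set against all miRNAs of the tissue. The interquartile range of the 519 tested miRNAs ran from −1.54 to 1.08 on the log2 scale, and the median was 0.01. Of the tested miRNAs, 44.1% had a more negative change than miR-132-3p, 32.4% than miR-132-5p, 39.5% than miR-212-3p and 33.5% than miR-212-5p. The scaling moved all strands together. With upper-quartile factors the median of all tested miRNAs shifted to 0.44 and the change of miR-132-3p to 0.12. Relative to that median it was −0.33, against −0.37 with TMM factors. MiR-132-5p lay below the median by a like amount under each scaling, at −0.99 for TMM, −1.04 for library totals, −0.98 for median-of-ratios and −0.97 for upper-quartile scaling. In the authors' deposited table the log2 fold changes were −0.25 for miR-132-3p, −0.91 for miR-132-5p, −0.55 for miR-212-3p and −0.84 for miR-212-5p. The authors' deposited table gives them adjusted p-values of 0.649, 0.0174, 0.324 and 0.12. These come from the same libraries.

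**Figure D3:**
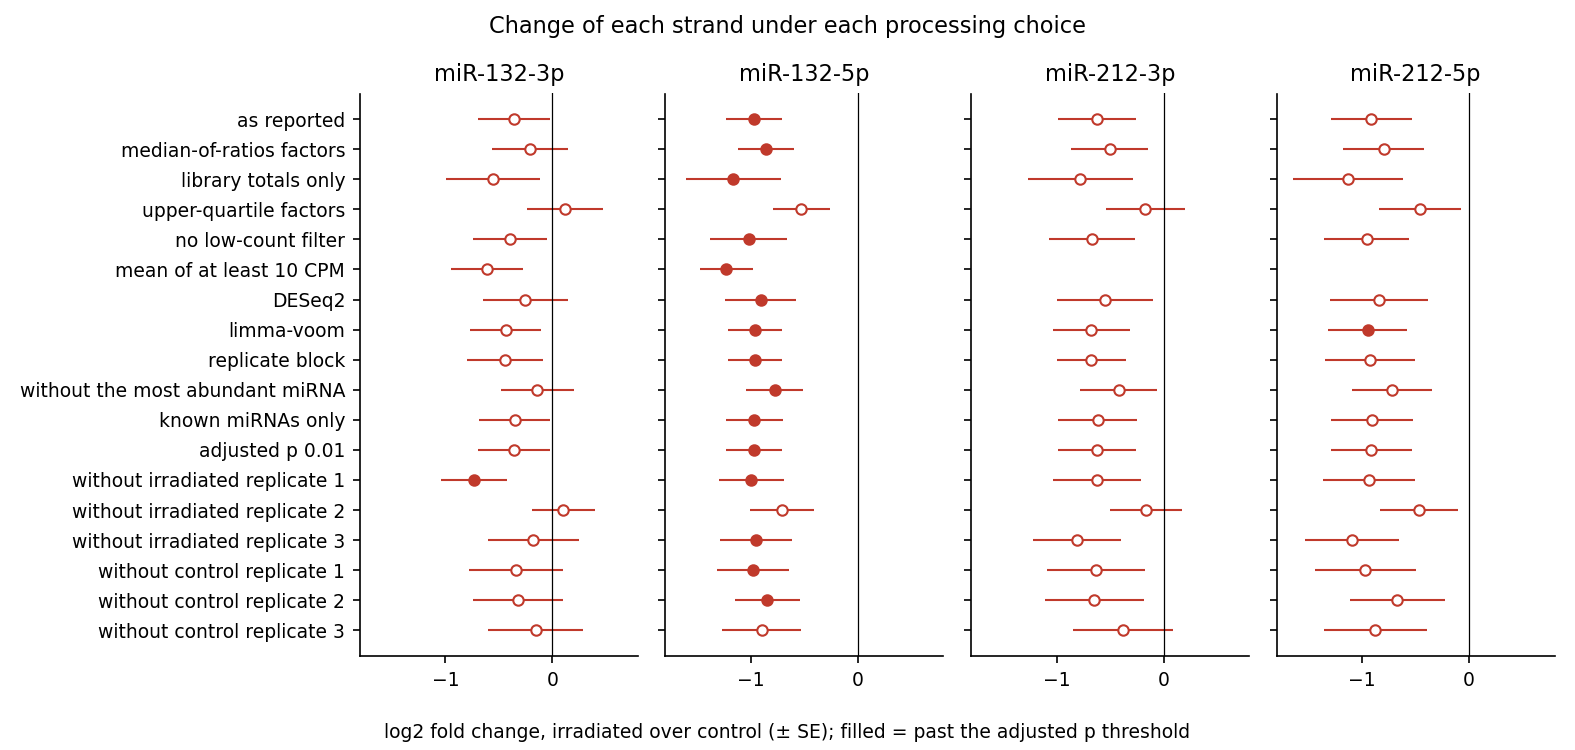
Log2 fold change of irradiated over control (± SE) for each strand under each processing choice, filled where the adjusted p passed the threshold. MiR-132-5p is filled in all but 3 of its 17 alternatives, and miR-132-3p crosses 0 with upper-quartile factors (0.12) and without irradiated replicate 2 (0.10).

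Both strands of a hairpin are cut from one precursor. A ratio of 2 counts from the same library needs no scaling. MiR-132-3p outnumbered miR-132-5p in every library, by 3.76, 1.76 and 2.24 to 1 in irradiated replicates 1, 2 and 3, and by 1.66, 1.54 and 1.94 to 1 in control replicates 1, 2 and 3. Irradiated replicate 1 had the highest ratio, and the groups overlapped. The mean log2 ratio was 1.30 ± 0.56 in irradiated and 0.77 ± 0.17 in control libraries (SD, n = 3 each), a difference of 0.53 with an exact two-sided permutation p of 0.2. An exact test of 3 against 3 libraries allows no p under 0.1. Without irradiated replicate 1 the difference was 0.22.

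For miR-212 neither strand dominated. MiR-212-3p stood to miR-212-5p at 1.02, 1.03 and 1.05 to 1 in irradiated replicates 1, 2 and 3, and at 0.904, 0.632 and 1.12 to 1 in control replicates 1, 2 and 3. The irradiated values were nearly equal, and the groups overlapped (difference 0.26 on the log2 scale, exact permutation p of 0.4, and 0.04 without control replicate 2 or 0.45 without control replicate 3). The third ratio set the seed-sharing strands against each other. MiR-132-3p exceeded miR-212-3p by 14.1, 9.77 and 6.73 to 1 in irradiated replicates 1, 2 and 3, and by 8.33, 8.94 and 7.54 to 1 in control replicates 1, 2 and 3. The irradiated libraries lay on either side of the control ones (difference 0.24 on the log2 scale, exact permutation p of 0.6, and −0.024 without irradiated replicate 1 or 0.51 without irradiated replicate 3). Over the 3 ratios each Benjamini-Hochberg adjusted exact p was 0.6.

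**Figure D4:**
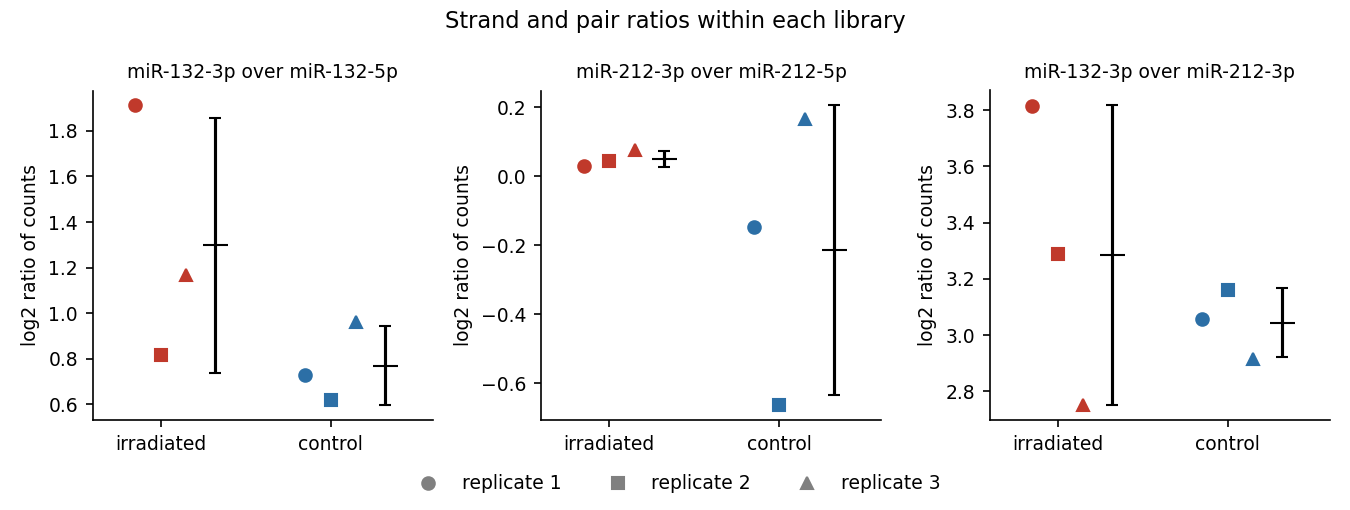
Log2 ratio of counts within each library for miR-132-3p over miR-132-5p, miR-212-3p over miR-212-5p and miR-132-3p over miR-212-3p, with 1 point per mouse and the mean ± SD beside it. Irradiated and control libraries overlap in every panel, and irradiated replicate 1 has the highest value in the left and right panels (1.91 and 3.82).

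The shared seed was carried mostly by miR-132-3p, which gave 93.4%, 90.8% and 87.1% of the summed 3p counts in irradiated replicates 1, 2 and 3 and 89.4%, 90.0% and 88.3% in control replicates 1, 2 and 3. The summed level of both 3p strands was 67.1 ± 26.9 CPM in irradiated and 87.5 ± 10.96 CPM in control thymus (SD, n = 3 each, exact permutation p of 0.3). Irradiated replicate 1, at 95.2 CPM, was within the control range of 75.03 to 95.7 CPM, and irradiated replicates 2 and 3, at 41.7 and 64.3 CPM, were below it.

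With both strands summed per hairpin, a step chosen after seeing the data, miR-132 was at 113, 59.3 and 81.0 CPM in irradiated replicates 1, 2 and 3, against 107, 136 and 128 CPM in control replicates 1, 2 and 3. Its log2 fold change was −0.55 ± 0.30 (SE, edgeR adjusted p of 0.128). It passed without irradiated replicate 1 (−0.82, edgeR adjusted p of 0.0209) and, at 0.0361, when miRNAs under a mean of 10 CPM were left out, in a range of 0.0209 to 0.762 across 17 alternatives. Summed miR-212 was at 12.4, 7.52 and 16.1 CPM in irradiated replicates 1, 2 and 3, against 16.8, 23.8 and 21.1 CPM in control replicates 1, 2 and 3. With TMM scaling all irradiated values lay below all control values (log2 fold change −0.77 ± 0.34 SE, edgeR adjusted p of 0.0727). In TPM scaled by library totals the groups overlapped, with irradiated replicate 3 at 16.4 and control replicate 1 at 13.8 (authors' TPM of both strands summed). It passed when miRNAs under a mean of 10 CPM were left out (−1.04, edgeR adjusted p of 0.0244, in a range of 0.0244 to 0.411 across 17 alternatives). That filter also moved the scaling. In the fit of single strands it gave a median of −0.195 over the miRNAs left, against 0.014 as reported. MiR-132-3p was then at −0.61, against −0.36. Without irradiated replicate 2 the change was −0.15 for miR-132 and −0.32 for miR-212, and neither passed.

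Libraries were similar in depth, with 7730641 to 9287017 counts each. Across miRNAs, which are no independent replicates, log2 levels correlated between libraries at 0.959 to 0.979 within irradiated and 0.989 to 0.994 within control libraries. Irradiated libraries differed in the miRNAs of other tissues. The summed level of the striated muscle list (miR-1a-3p, miR-133a-3p, miR-133b-3p and miR-206-3p) was 603, 20130 and 13400 CPM in irradiated replicates 1, 2 and 3, and 203 to 481 CPM in control libraries. The erythroid list (miR-451a, miR-144-3p and miR-486a-5p) summed to 604, 5028 and 1982 CPM in irradiated replicates 1, 2 and 3 and to 480 to 724 CPM in control libraries. Irradiated replicate 2, the highest in both lists, was the lowest library for all 4 strands. Irradiated replicate 1, the lowest of the irradiated libraries in both lists, was the highest for miR-132-3p only. Among irradiated libraries miR-132-5p, miR-212-3p and miR-212-5p were highest in replicate 3 (25.0, 8.28 and 7.86 CPM). In replicate 1 they were at 23.6, 6.26 and 6.13 CPM. Whether such material took part in the differences of miR-132 and miR-212 was not tested. Control replicate 2 had the highest TMM factor, 1.39 against 0.823 to 1.01 in the other libraries.

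Marker lists of the thymus cell types are given beside the pair, whose strands had log2 changes of −0.97 to −0.36. The lymphocyte list, which includes the thymocyte miRNAs miR-181a-5p and miR-128-3p, summed to 11390, 6879 and 9144 CPM in irradiated replicates 1, 2 and 3, against 101300 to 168300 CPM in control libraries. Counts of calls in these lists are to be read beside the 27.7% of all tested miRNAs called higher and the 33.5% called lower. Of the 6 tested lymphocyte members 5 fell and 0 rose, with a median log2 change of −3.84. In the fibroblast list all 3 rose (median 1.56), and in the epithelial list all 4 (median 1.69). Of the endothelial miR-126a strands 1 of 2 rose, and of the smooth muscle pair miR-143-3p and miR-145a-5p none of 2 passed. Of 4 in the myeloid and inflammation list 1 rose and 0 fell. These lists were chosen with earlier results known and describe the tissue. The changes of the pair lay between the median of the lymphocyte list and those of the fibroblast and epithelial lists. So did the whole interquartile range of all tested miRNAs, −1.54 to 1.08, so this position is not particular to the pair.

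Other miRNAs known from neurons or regulated by neuronal activity were read beside the pair. Of 10 listed, all had counts and 8 were tested, of which 4 rose, 1 fell and 3 did not pass. The 5 calls among 8 are near the 61.3% of all tested miRNAs that passed. The median log2 change was 0.69, beside 0.01 for all tested miRNAs. The most abundant, miR-218-5p, averaged 559 ± 279 CPM in irradiated and 179 ± 36.1 CPM in control thymus (SD, n = 3 each, log2 fold change 1.65 ± 0.36 SE, edgeR adjusted p of 0.00356). MiR-9-5p, a miRNA of neural progenitors, averaged 352 ± 157 CPM in irradiated and 157 ± 29.1 CPM in control thymus (log2 fold change 1.17 ± 0.35 SE, edgeR adjusted p of 0.0147). MiR-134-5p and miR-138-5p also rose, and miR-219a-5p fell by 3.48 on the log2 scale (edgeR adjusted p of 9.9e-05). MiR-9-3p, miR-184-3p and miR-129-5p did not pass.

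Neighbouring miRNAs on chromosome 11 were read to see what lies around the locus. Within 1 Mb of Mir132, Mir22 lies 290 kb further on (75463716 to 75463810). Its strand miR-22-5p was at 53.2, 65.4 and 53.4 CPM in irradiated replicates 1, 2 and 3, against 23.4, 19.8 and 25.1 CPM in control replicates 1, 2 and 3. All irradiated values were above all control values (log2 fold change 1.33 ± 0.26 SE, edgeR adjusted p of 0.00185). MiR-22-3p also had every irradiated value above every control value and did not pass (0.55 ± 0.22 SE, edgeR adjusted p of 0.0509). MiR-6926-3p, from the other neighbouring hairpin in the table, had 1 count in the 6 libraries.

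The miRNAs with the profile most like that of miR-132-3p were found by the root mean square difference of log2 levels over the 6 libraries, each miRNA centred on its own mean. Among 309 candidates with a mean of at least 10 CPM, the closest were miR-28a-5p (0.09), miR-150-5p (0.13), miR-194-5p (0.16), miR-322-5p (0.24), miR-652-3p (0.24) and miR-3068-5p (0.31). MiR-150-5p is a miRNA of mature lymphocytes. In the lymphocyte list above it was the only member that did not pass (log2 fold change −0.31, edgeR adjusted p of 0.373). The closest of all, miR-28a-5p, was at 118, 49.7 and 75.8 CPM in irradiated replicates 1, 2 and 3, against 86.6, 118 and 132 CPM in control replicates 1, 2 and 3. Like miR-132-3p it was lowest in irradiated replicate 2, and none of the 6 passed the test between groups (edgeR adjusted p of 0.0584 to 0.554). The 6 were chosen for likeness to miR-132-3p over these same libraries, so both features largely follow from the choice. The strands of the pair itself were further away, with 0.33 for miR-212-3p, 0.42 for miR-212-5p and 0.43 for miR-132-5p, which would place them 11, 27 and 33 among the candidates. Both miR-212 strands lie under the mean of 10 CPM asked of the candidates, with 31 to 157 counts per library. Counting error therefore weighs more on their distances, and their places are not on equal terms. MiR-132-3p and its partner strand differed most in irradiated replicate 1. There miR-132-3p was 0.41 above its own mean on the log2 scale, and miR-132-5p stood at −0.46.

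**Figure D5:**
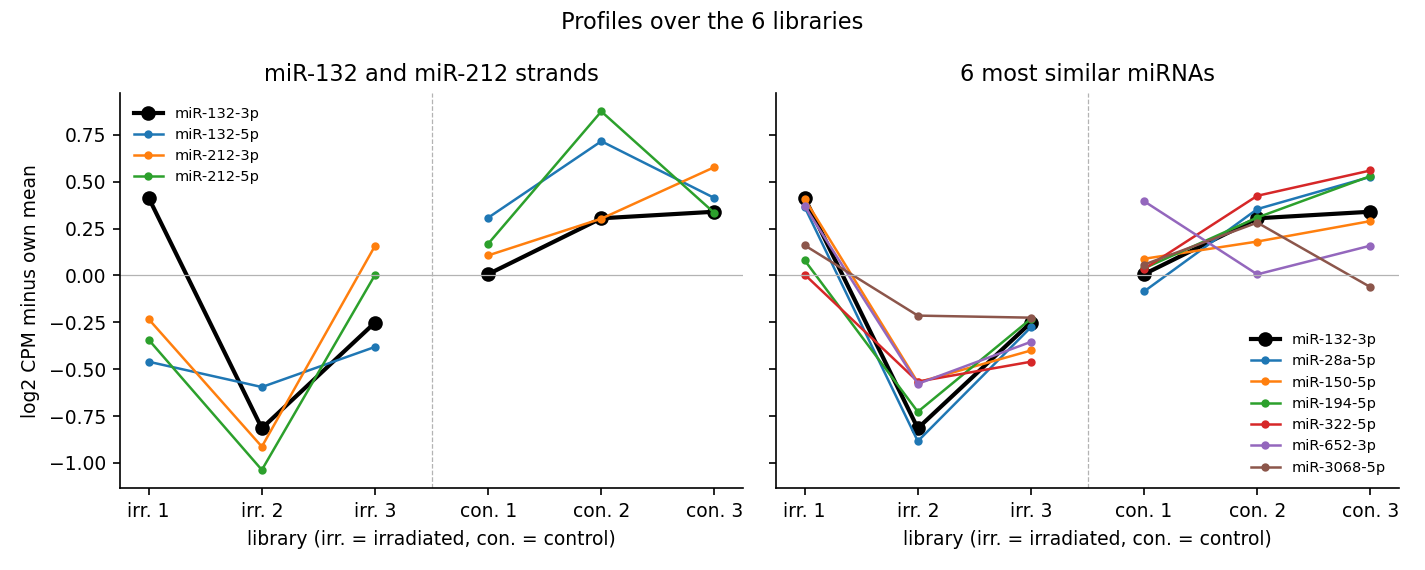
Log2 CPM minus each miRNA's own mean (vertical axis) in the 6 libraries, for the 4 strands (left) and for miR-132-3p with its 6 most similar miRNAs (right). Lines join the libraries of a group only to guide the eye. In irradiated replicate 1 miR-132-3p stands at 0.41, whereas miR-132-5p, miR-212-3p and miR-212-5p stand at −0.46, −0.23 and −0.34.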

How the data were processed

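Small-RNA libraries of thymus from 3 irradiated and 3 control mice were used, grouped by the labels, which give n = 3 mice per group. Per the file headers, the deposited table gives read counts as whole numbers for each mature miRNA. The authors' TPM values are counts over the library total scaled to 1000000 (recomputed values differed by at most 4.6e-05). The authors' log2 fold change and p-value columns compare the same groups, and the submitters' processing notes name DESeq2 1.10.1. The aligner, counting tool and build were not given in the sources used here. Another 6 columns of counts match no label and were left unused.

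The groups were compared with edgeR 4.0.16 under R 4.3.3 (TMM factors, filterByExpr defaults, robust quasi-likelihood test), with Benjamini-Hochberg adjustment over all 519 tested miRNAs and a threshold of 0.05. The fit was tested on simulated data whose spread came from the control libraries alone. The simulation therefore does not speak to the wider spread among irradiated libraries. Ratios used counts plus 0.5 and exact two-sided permutation tests. A count of 0 allows up to 3 counts, 0.278 to 0.428 CPM; this covers counting error only, as reads carry no molecular identifiers. Alternatives were other scalings, filters, DESeq2 1.42.0, limma-voom 3.58.1, a replicate block, a stricter threshold, known miRNAs only, and leaving out the most abundant miRNA or each library. Profiles used log2 CPM with prior count 2. The named miRNAs were the 4 strands, the 6 nearest profiles to miR-132-3p, miRNAs within 1 Mb and the most abundant 2 of the neuronal list. MiR-134-5p, miR-138-5p, miR-219a-5p and other list members were named after their values were seen. The strands and lists were chosen with earlier results of these data known. Sequences and coordinates are from RefSeq (GRCm38.p6) and GENCODE M21, with all 4 strands matched.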

Additional observations from a re-analysis of the deposited data

How the results depend on the processing

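Of 17 alternatives, 16 left the number of miRNAs past the threshold within 1.5 times the 318 reported, and a mean of at least 10 CPM gave 210 of 313 tested (leaving out 1 library gave 266 to 374). That filter removed both miR-212 strands. The share past the threshold depended on the filter more than the number did. Without the low-count filter 344 of 1244 miRNAs passed, and with DESeq2 320 of 1244, against 318 of 519 as reported. Upper-quartile factors reversed miR-132-3p (0.12), the summed 3p strands (4.90 CPM), miR-28a-5p (0.014), miR-150-5p (0.16), miR-652-3p (0.13) and miR-3068-5p (0.27), and ended the call for miR-132-5p (−0.53). Those factors raised the median of all tested miRNAs to 0.44, and gave 59.7% higher among the calls, against 45.3% with TMM, 38.4% with library totals and 50.5% with median-of-ratios factors. Limma-voom brought miR-212-5p past the threshold (−0.95). Without the most abundant miRNA, miR-3068-5p was at 0.015. Leaving out 1 library gave −0.73 to 0.10 for miR-132-3p, −0.997 to −0.71 for miR-132-5p, −0.81 to −0.16 for miR-212-3p, −1.09 to −0.47 for miR-212-5p and −0.024 to 0.51 for the log2 ratio of miR-132-3p to miR-212-3p, the low end without irradiated replicate 1. It gave −0.83 to 0.003 for miR-28a-5p, −0.68 to 0.079 for miR-150-5p, −0.67 to 0.059 for miR-652-3p and −0.35 to 0.081 for miR-3068-5p, the high ends without irradiated replicate 2. The log2 difference of the strand ratio ran from 0.22 to 0.77 for miR-132 and from 0.04 to 0.45 for miR-212. Beyond the scaling, the cause of these shifts was not tested.

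Deviations of same-numbered libraries from their group means correlated at 0.0994, −0.0244 and 0.23 for numbers 1, 2 and 3. Not every pair was over 0.1, so the numbers were not treated as pairs. With the replicate number as a block, 298 miRNAs passed. MiR-132-3p was then at −0.44, miR-132-5p at −0.96 (edgeR adjusted p of 0.0223), miR-212-3p at −0.67 and miR-212-5p at −0.93, and no call for the 4 strands changed. The miR-212 strands had 31 to 157 counts per library.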
